A study of Rattus norvegicus with 9 samples.

Results

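A set of 10 imprinted genes was followed by RNA sequencing in rat primitive extraembryonic endoderm stem cells (pXEN cells): Cdkn1c, Phlda2, Grb10, Peg3, Mest, Dlk1, Sgce, Ndn, Ube3a and Gnas. They were taken by name from a table of 17315 genes, with no threshold on their values, and all 10 had a row. The names were chosen by reference to the levels of these genes in the 3 media, from these same counts, so those levels are given as a description without p-values. In the embryo, the primitive endoderm to which pXEN cells correspond gives rise to the yolk sac's endoderm. All 9 libraries came from the single line RX1 of the WKY strain, 3 from each of 3 culture media.

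Cells in the group T grew in a traditional serum medium, DMEM/MCDB with LA-BSA, ITS, L-ascorbic acid and β-mercaptoethanol, on plates coated with fibronectin at 100 ng/ml. It held 2% FBS, dexamethasone (a synthetic glucocorticoid) at 0.5 µM, and the factors Pdgf, Egf and Lif at 10 ng/ml each. Cells in the group LPE grew without serum on collagen I (10 µg/ml) in DMEM/F12 and Neurobasal with N2, B27 and β-mercaptoethanol, plus the same 3 factors at the same dose. The group CPE had the basal medium, coating, Pdgf and Egf of LPE, and 1 µM Chir99021, an inhibitor of the kinase Gsk3 that activates Wnt signalling, where LPE had Lif. Pdgf and Egf were thus common to all groups. T differs from both others in serum, dexamethasone, basal medium and coating at once, and these cannot be told apart. The labels do not say whether the 3 libraries of a medium came from separate cultures, so all errors measure the spread between libraries, which may be technical.

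An imprinted gene is transcribed mainly from the copy inherited from 1 parent, because a DNA methylation or histone mark laid down in the germ line is kept on 1 copy only. Imprinted genes lie in clusters under shared control regions, and many act in the placenta and yolk sac, where paternally expressed genes tend to promote growth and maternally expressed genes to restrain it. In mouse, Cdkn1c, Phlda2, Grb10 and Ube3a are expressed from the maternal copy, Ube3a in neurons only. Peg3, Mest, Dlk1, Sgce and Ndn are expressed from the paternal copy, and the Gnas locus makes both maternal and paternal transcripts. The counts do not separate the parental copies, so they give the total output of each gene and say nothing of which copy was used.

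The promoters of 3 members that were lowest in LPE (Peg3, Grb10 and Phlda2) are shown for their content of CG dinucleotides, the sites of DNA methylation. Each sequence is the 250 bases before the annotated start, from RefSeq on build GRCr8, read 5′ to 3′ on the gene's strand, with each CG in capitals.
Peg3 (chr1:76130744-76130993, plus strand): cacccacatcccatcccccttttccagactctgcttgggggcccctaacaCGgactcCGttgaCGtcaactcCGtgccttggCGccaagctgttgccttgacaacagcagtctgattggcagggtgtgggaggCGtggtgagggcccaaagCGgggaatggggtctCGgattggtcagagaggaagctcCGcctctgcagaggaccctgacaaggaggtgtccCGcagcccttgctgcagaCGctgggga
Grb10 (chr14:90816388-90816637, minus strand): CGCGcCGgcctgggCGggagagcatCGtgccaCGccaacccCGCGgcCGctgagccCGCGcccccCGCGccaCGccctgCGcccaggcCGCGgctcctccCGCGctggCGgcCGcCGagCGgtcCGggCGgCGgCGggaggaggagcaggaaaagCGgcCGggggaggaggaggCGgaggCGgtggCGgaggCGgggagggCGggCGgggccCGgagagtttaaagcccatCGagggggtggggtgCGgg
Phlda2 (chr1:208127242-208127491, minus strand): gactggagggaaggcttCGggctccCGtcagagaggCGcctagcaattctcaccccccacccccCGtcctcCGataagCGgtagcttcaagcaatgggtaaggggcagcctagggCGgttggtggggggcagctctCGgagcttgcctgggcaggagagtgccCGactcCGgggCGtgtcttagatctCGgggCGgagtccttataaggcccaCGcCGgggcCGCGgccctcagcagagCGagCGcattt
The windows hold 11, 38 and 19 CG dinucleotides. The median over 33469 rat promoter windows of this length was 5 and the upper quartile 15, so Peg3 lies between these and the others above it. None of the 3 windows held, on either strand, the glucocorticoid receptor half-site TGTTCT (in 17.5% of all windows), the Tcf/Lef motif CTTTGNT (16.4%) or the Yy1 motif GCCATNTT (4.23%). Of windows not shown, that of Ube3a, also lowest in LPE, held 1 Yy1 match and that of Ndn 1 Tcf/Lef match. The windows of Mest, Dlk1, Sgce and Gnas held none of these motifs. The GC box GGGCGG, in 30.5% of all windows, matched 4 times in Grb10, 2 times in Phlda2 and not in Peg3. These are letter matches in a short window and say nothing of binding. Of the 10 members, 9 had an entry in this table. The Cdkn1c window is not shown.

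Reads assigned to genes numbered 1698764 to 2161228 per library in T, 3119049 to 3233526 in LPE and 3127352 to 4418465 in CPE. One count was worth 0.465 to 0.579 CPM (counts per 1000000 gene reads, after scaling) in T and 0.227 to 0.322 CPM in the other media. The variance between 2 replicates was 1.94 to 4.26 times that of sampling alone among T libraries, against 10.9 to 17.6 times for LPE and 11.03 to 14.2 times for CPE, over genes of at least 20 counts per pair. Low counts in LPE and CPE are therefore less precise than their number implies. The T libraries also stood apart in 2 other measures: 64.9% to 67.6% of their reads mapped to several places, against 51.7% to 59.9% in the serum-free libraries, and 511 to 791 genes had exactly 1 count, against 26 to 92. These differences run along T against the other media and touch every zero and lower bound given here, and their part in the results was not tested. Extraembryonic endoderm markers were all detected in each medium (11 of 11 with a row), with summed levels of 9812 to 10317 CPM in T, 17940 to 19339 in LPE and 10949 to 11932 in CPE. The label of the cells therefore matches their markers. The highest of these markers were Col4a1 and Sparc, with means of 3204 and 2635 CPM in T, 9584 and 4106 in LPE, and 5349 and 3026 in CPE. Other markers moved both ways from T to LPE, such as Gata6 from 285 to 521 CPM and Pdgfra from 464 to 290. The sums therefore do not rank the media by endoderm character. In bulk RNA, fewer cells of a type and less RNA per cell cannot be told apart.

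Cdkn1c and Mest differed between T and both serum-free media, in opposite directions. Peg3, Phlda2 and Grb10 were lowest in LPE and stood nearer to T, or above it, in CPE. Dlk1 was counted almost only in CPE. Sgce was lower than T in every serum-free library, though 1 nearly reached it. The mean levels of Ndn, Ube3a and Gnas differed least between media. The Ube3a groups still did not overlap, and Ndn varied between libraries of each medium.

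**Figure D1:**
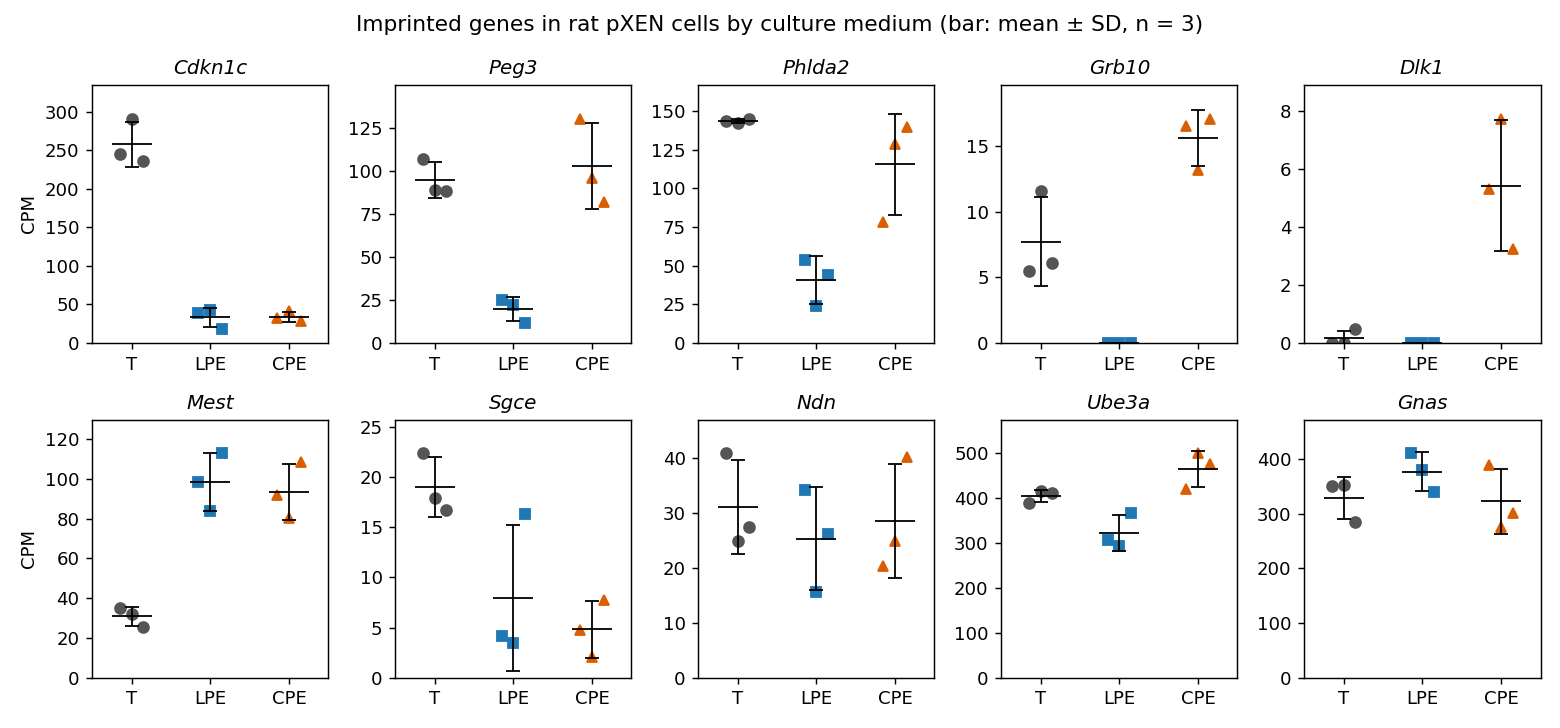
Level of each of the 10 genes in CPM (y axis, linear from 0, scaled per gene) by culture medium (x axis). Each point is 1 library and the bars give the mean and SD of 3. Cdkn1c is high in T alone, Mest is low in T alone, and Peg3, Phlda2 and Grb10 are lowest in LPE.

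The maternally expressed genes Cdkn1c, Phlda2 and Grb10 restrain growth. Cdkn1c encodes p57, an inhibitor of cyclin-dependent kinases that halts the cell cycle. The T libraries held 246, 291 and 237 CPM of it, those of LPE 38.4, 42.3 and 18.6, and those of CPE 31.8, 40.9 and 28.99. Every T library lay far above every serum-free library, while LPE and CPE overlapped. The log2 fold change was -2.96 (SE 0.26) for LPE against T and -2.92 (SE 0.26) for CPE against T, that is 7.78-fold and 7.56-fold lower. Between CPE and LPE it was 0.04 (SE 0.26).

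Phlda2, a small lipid-binding protein that limits growth of the placenta, lies in the same cluster as Cdkn1c. Both were lower in LPE than in T, but in CPE Phlda2 stood near T. Its levels were 143.5, 142 and 145 CPM in the serum medium, 53.7, 23.6 and 44.2 with LPE and 78.4, 129 and 139.8 with CPE. The LPE libraries were the lowest of all, and the CPE libraries lay between them and T, with no overlap on either side. Phlda2 was 3.55-fold lower in LPE than in T (log2 fold change -1.83, SE 0.27) and 2.85-fold higher in CPE than in LPE (1.51, SE 0.27). From T to CPE the difference was small, at -0.31 (SE 0.26).

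The genes of this stretch can be set in order. In the RefSeq table (GRCr8, used for gene order only) Cdkn1c, Slc22a18, Phlda2 and Nap1l4 follow each other with 0 genes between them. Slc22a18, an organic cation transporter gene that is maternally expressed in mouse, had more counts in the serum-free media. Its mean ± SD (n = 3 for this and all later such values) was 1.35 ± 1.18 CPM in T, at 0 to 4 counts per library, then 11.2 ± 9.31 in LPE and 7.84 ± 4.75 in CPE. Its rise in LPE passed the test across all genes (edgeR adjusted p = 0.0466), but not without any 1 T library, LPE replicate 2, or CPE replicate 1 or 2 (0.0527 to 0.171), nor with the replicate block (0.131) or LPE and T alone (0.0513). CPE against T was not called (edgeR adjusted p = 0.0885). Every T library was under the cutoff of the filter on low counts. Slc22a18 passed it through the serum-free libraries alone, so that a rise from T was partly built in. The histone chaperone gene Nap1l4 fell 1.73-fold in LPE (edgeR adjusted p = 0.00387) and 1.499-fold in CPE (edgeR adjusted p = 0.0215) from 392 ± 41.5 CPM in T. The CPE call was lost without T replicate 2 or CPE replicate 1 or 2 (adjusted p = 0.0997, 0.0848 and 0.0508). Kcnq1, the channel gene of the same cluster, had 0 to 7 counts per library and was not tested.

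**Figure D2:**
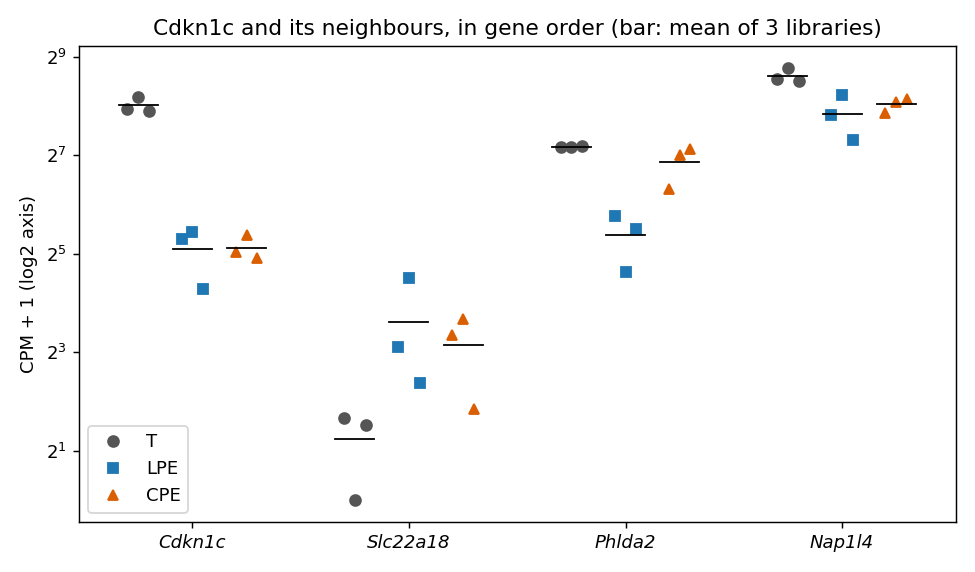
Cdkn1c and its next 3 genes in chromosome order (x axis) with their levels as CPM + 1 on a log2 axis (y axis). Points are libraries by medium and bars are means of 3. Cdkn1c has similar levels in LPE and CPE, whereas Phlda2 is lowest in LPE and Slc22a18 is lowest in T.

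Grb10 encodes an adaptor that binds the insulin and Igf1 receptors and dampens their signal. It had 10, 20 and 13 counts in T (5.46, 11.6 and 6.04 CPM), 0 counts in all 3 LPE libraries, and 56, 58 and 53 counts in CPE (16.5, 13.2 and 17.1 CPM). The 3 groups did not overlap. Set against a floor of 3 counts per library, Grb10 was at least 8.09-fold lower in LPE than in T and at least 16.4-fold higher in CPE than in LPE. It was 2.02-fold higher in CPE than in T (log2 fold change 1.02, SE 0.74). These bounds cover counting error only. Of the 9130 genes tested 111 (1.22%) were at 0 in all LPE libraries, against 16 (0.175%) in T and 59 (0.646%) in CPE. LPE replicate 2 also held 25 reads on the strand opposite to Grb10. With reads of either strand counted, the log2 fold change of LPE against T was -1.55 and that of CPE against LPE 2.57, and neither was called.

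Among the paternally expressed genes, Peg3 stood apart in LPE. It encodes a zinc-finger transcription factor that acts on fetal growth and maternal behaviour. Peg3 stood at 107, 88.6 and 88.3 CPM in T, at 24.9, 22.1 and 11.5 for LPE and at 130.3, 95.6 and 81.8 for CPE. All LPE libraries were far below the rest, and T and CPE overlapped. The log2 fold change was -2.27 (SE 0.28) for LPE against T, 2.39 (SE 0.28) for CPE against LPE and 0.12 (SE 0.26) for CPE against T. Reads of either strand gave 205 fewer counts for Peg3 over the 9 libraries than reads of its own strand (1636 against 1841), and in LPE replicate 3 they gave 11 in place of 36. A read over genes on both strands is set aside as ambiguous when strand is ignored.

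Mest, which encodes a membrane protein of the hydrolase fold that is abundant in embryonic mesoderm, was the member lower in T. T gave 34.9, 31.9 and 25.6 CPM, LPE 98.4, 83.6 and 113, and CPE 92.0, 80.2 and 108. No serum-free library came near T. Mest was 3.199-fold higher in LPE than in T (log2 fold change 1.68, SE 0.22) and 3.04-fold higher in CPE (1.60, SE 0.22), with -0.07 (SE 0.21) between CPE and LPE. Its neighbour Copg2, a coat protein gene next to it with 0 genes between, was not called in any comparison, at 68.03 ± 4.17, 81.6 ± 14.2 and 81.9 ± 16.99 CPM in T, LPE and CPE.

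Dlk1 encodes a membrane protein related to the Notch ligands that holds back differentiation of fat cell precursors. It had 18, 34 and 10 counts in CPE (5.31, 7.72 and 3.22 CPM), 1 count in T replicate 3, and 0 in the other T libraries and in all of LPE. It passed the filter on low counts through the CPE libraries alone, so that a difference was built in. The ratio of CPE to T was 32.5 with a 95% exact counting interval of 5.62 to 1303, and Dlk1 was at least 5.696-fold higher in CPE than in LPE. The interval and the bound cover counting error only and leave out the spread between libraries. No fold was taken between LPE and T, which are both at or under the floor.

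Sgce encodes epsilon-sarcoglycan, a part of the dystrophin complex. The T libraries gave 22.4, 17.95 and 16.7 CPM, LPE 4.16, 3.42 and 16.3, and CPE 4.72, 2.04 and 7.73. T was the highest group, although LPE replicate 3 nearly reached it. The log2 fold change of LPE against T was -1.25 (SE 0.73) with that library and -2.31 without it, and that of CPE against T was -1.98 (SE 0.75). Between CPE and LPE it turned from -0.73 (SE 0.74) to 0.34 without LPE replicate 3. Peg10, which starts close to Sgce on the other strand and shares its control region in mouse, is not analysed here.

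Ndn, Ube3a and Gnas differed least between media. Ndn encodes necdin, a growth-suppressing protein of the MAGE family, with 40.9, 24.9 and 27.4 CPM in T, 34.2, 15.5 and 26.3 for LPE and 20.3, 24.98 and 40.3 for CPE. The groups overlapped, and the log2 fold changes lay between -0.29 and 0.17 (SE 0.38 to 0.39). Gnas encodes the stimulatory G protein subunit that links hormone receptors to cAMP. Its libraries spanned 285 to 352 CPM in T, 339 to 410 for LPE and 276 to 390 for CPE, again with overlap, and its log2 fold changes lay between -0.23 and 0.20 (SE 0.14).

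Ube3a, a ubiquitin ligase gene whose loss in neurons causes Angelman syndrome, differed little but without overlap. The libraries gave 390, 415 and 410 CPM for T, 305, 294 and 366 for LPE and 421, 499 and 475 for CPE, with LPE lowest and CPE highest. It was 1.26-fold lower in LPE than in T (log2 fold change -0.33, SE 0.12), 1.148-fold higher in CPE than in T (0.20, SE 0.12) and 1.45-fold higher in CPE than in LPE (0.53, SE 0.12).

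**Figure D3:**
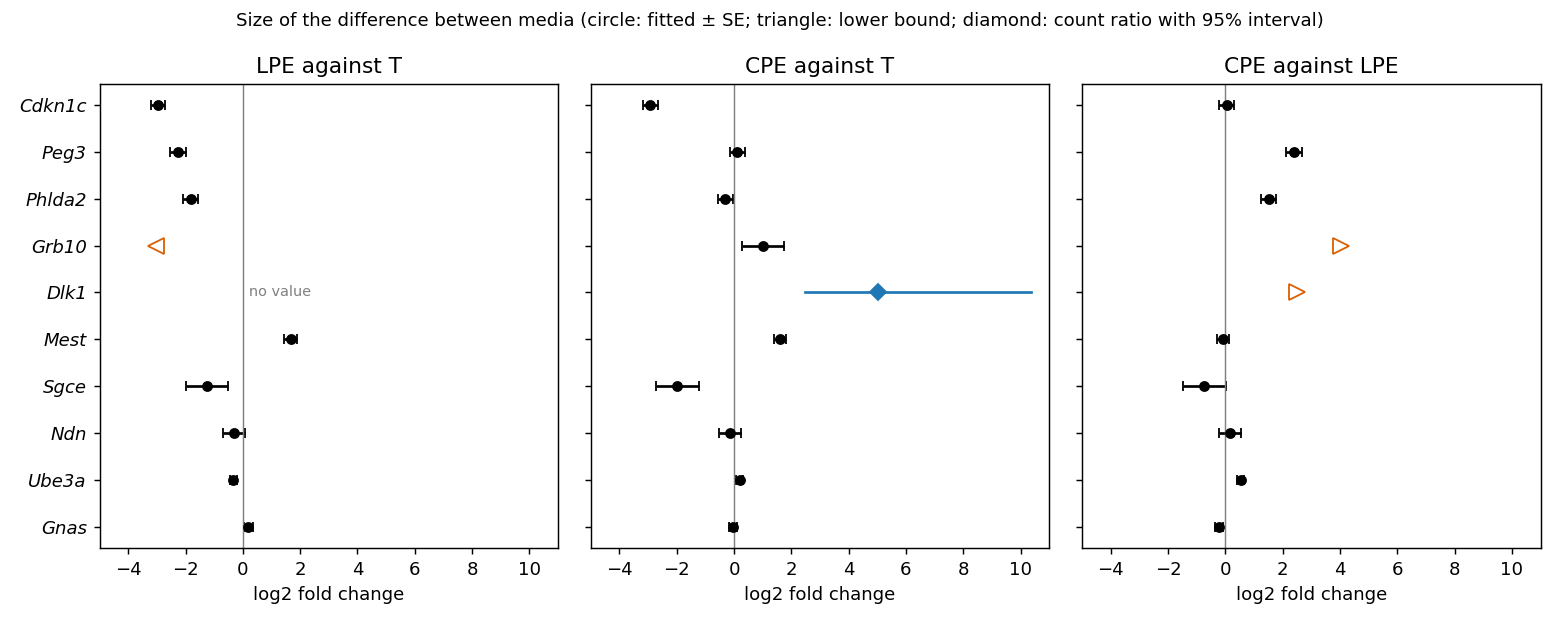
Log2 fold change (x axis) of each of the 10 genes (rows) in the 3 comparisons (panels). Circles are fitted values with their SE, open triangles are lower bounds where 1 medium had 0 counts, and the diamond is a count ratio with its 95% interval. The Cdkn1c value is -2.96 in LPE and -2.92 in CPE against T, whereas that of Peg3 is -2.27 in LPE and 0.12 in CPE.

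Across the 10 genes, the LPE and T libraries did not overlap for 7 (1 higher and 6 lower in LPE), against 47.3% of the 9130 genes tested (21.9% higher, 25.4% lower). CPE and T did not overlap for 7 (4 higher, 3 lower), against 54.4% (26.2% higher, 28.1% lower). CPE and LPE did not overlap for 5, all higher in CPE, against 31.3% (16.8% higher, 14.5% lower). The fit across all genes called 1 higher and 5 lower in LPE against T, where it called 29.7% of all genes (15% higher, 14.7% lower). It called 2 higher and 1 lower in CPE against T (32.1% of all genes, 16.8% higher and 15.3% lower). It called 5 higher and 0 lower in CPE against LPE (17.8%, 9.56% higher and 8.23% lower). The last 5 were Peg3, Grb10, Dlk1, Ube3a and Phlda2. Dlk1, which passed the filter through CPE alone, had to differ there. Without it 9 genes remained, with 1 called higher and 1 lower in CPE against T and 4 called higher in CPE against LPE. Since the genes were chosen with these values known, the counts are a description and nothing is read from them. The median log2 fold change of the 10 was -1.54 in LPE against T, 0.04 in CPE against T and 0.35 in CPE against LPE, where all genes tested had medians of -0.03, -0.01 and 0.01. The comparisons share libraries, so they are not separate evidence.

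Some of these calls depended on single libraries or on the fit. The Ube3a call in LPE against T was lost without any 1 T library or without LPE replicate 1 or 2, at log2 values of -0.37 to -0.26, and also with LPE and T fitted alone (-0.30) or no filter on low counts (-0.33). The Dlk1 call in CPE against T was lost without any 1 T library or CPE replicate 3, and that in CPE against LPE without T replicate 3, while its fitted log2 values stayed between 4.24 and 7.03. Both Dlk1 calls were also lost with a replicate block (4.69 and 6.99), that in CPE against T with reads of either strand (4.68) or no filter on low counts (4.70), and that in CPE against LPE when those groups were fitted alone (7.21). Sgce gained a call in CPE against T without any 1 LPE library (-1.98 to -1.97) or CPE replicate 3 (-2.50), and in LPE against T without LPE replicate 3 (-2.31). In CPE against T it was also called by DESeq2 (-1.98), with those groups fitted alone (-1.97) and with the replicate block (-2.24).

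The genes whose pattern over the 9 libraries was most like that of Cdkn1c were RGD1310127, Ssr3 and Tagln2, with a Pearson correlation of log2 CPM of 0.98 for each, given as a description. Ssr3, a subunit of the translocon-associated complex of the endoplasmic reticulum, went from 984 ± 55.3 CPM in T to 590 ± 57.04 in LPE and 627 ± 63.3 in CPE. For Peg3 they were Morf4l2, St3gal4 and Rabl3 (0.99, 0.98 and 0.97). Morf4l2, a chromatin factor gene, was lowest in LPE at 225 ± 59.3 CPM, against 497 ± 20.6 in T and 481 ± 38.96 in CPE. The points share their libraries and depth.

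Other imprinted genes were taken from a list of 59 known from mouse, of which 46 had a row, 14 of these stood at 0 counts in all 9 libraries and 23 were tested. In LPE against T they moved both ways, with 7 rises, 7 falls and 9 genes not called. Of all genes 29.7% were called there (15% higher, 14.7% lower). In CPE against T more rose than fell, with 12 rises, 3 falls and 8 that did not pass (32.1% of all genes called, 16.8% higher and 15.3% lower). Between CPE and LPE 10 were higher in CPE, 2 lower and 11 did not pass (17.8%, 9.56% higher and 8.23% lower). Their median log2 fold changes were 0.09, 1.23 and 0.53 (-0.03, -0.01 and 0.01 over all genes tested). Zrsr1 and Slc22a18 are among the rises in LPE, Zrsr1 and Igf2 among those in CPE, and Igf2 among those higher in CPE than in LPE. Each passed the filter on low counts only with media where it was higher, so these rises were at least partly built in. The list was chosen with earlier results of these data known, so the counts and medians are a description.

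Among 9 paternally expressed genes tested, 3 rose and 3 fell in LPE, and 5 rose and 1 fell in CPE. The 5 of them called between CPE and LPE (4 higher, 1 lower) became 3 without LPE replicate 3 or CPE replicate 3. Over all genes tested, the shares called higher in LPE against T, CPE against T and CPE against LPE were 15%, 16.8% and 9.56%. Those called lower were 14.7%, 15.3% and 8.23%. The rises from T include Zrsr1 in both media and Igf2 in CPE, for which the filter on low counts built in a rise. Jade1, a subunit of a histone acetyltransferase complex, rose from 6.99 ± 2.98 CPM in T to 130 ± 15.9 in LPE (18.2-fold, edgeR adjusted p = 2.5e-07) while CPE stood 3.72-fold below LPE, at 34.8 ± 8.01 CPM (edgeR adjusted p = 0.00015). Zrsr1, a splicing factor gene, had 0 counts in T and was at least 6.36-fold higher in LPE and at least 3.17-fold higher in CPE, at 10.1 ± 6.12 and 5.04 ± 3.21 CPM. With 0 counts in T, Zrsr1 passed the filter on low counts through the serum-free libraries alone, so that a rise was built in. It has close copies elsewhere in the genome, so its count is uncertain. Sfmbt2, a Polycomb-type gene of the extraembryonic tissues, fell 5.65-fold from 53.0 ± 10.01 CPM in T to 9.31 ± 7.92 in LPE (edgeR adjusted p = 0.00095). The amino acid transporter gene Slc38a4 fell 4.07-fold in LPE (edgeR adjusted p = 0.0031) and 2.48-fold in CPE (edgeR adjusted p = 0.032), the CPE call being lost without any 1 T library or CPE replicate 1 or 2 (0.0563 to 0.125). Peg12, which in mouse lies in the cluster of Ndn and Ube3a, had 74.8 ± 11.1 CPM in T and 63.1 ± 4.97 in CPE and was 3.42-fold higher there than its 18.4 ± 4.405 in LPE (edgeR adjusted p = 0.00019). Snrpn and Snurf of that cluster, and Usp29 beside Peg3, had 0 counts in all libraries. Snrpn and Snurf share a transcript, and reads over both would be counted for neither.

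Among 14 maternally expressed genes tested, 4 rose and 4 fell in LPE, and 7 rose and 2 fell in CPE. The 8 calls in LPE became 5 without T replicate 2 or 3. Over all genes tested, 15% were called higher and 14.7% lower in LPE against T, and 16.8% and 15.3% in CPE against T. The rises in LPE include Slc22a18, for which the filter on low counts partly built in a rise. Pon2, a paraoxonase gene of the cluster of Sgce, had the pattern of Grb10. It stood at 22.5 ± 1.22 CPM in T, at 0 counts in all LPE libraries and at 59.8 ± 3.48 CPM in CPE, so it was at least 23.7-fold lower in LPE than in T and at least 62.9-fold lower in LPE than in CPE. Cobl, an actin nucleator gene beside Grb10 in mouse, rose 6.53-fold in LPE from 16.3 ± 2.35 CPM in T (edgeR adjusted p = 1.3e-05) with CPE 2.27-fold below LPE (edgeR adjusted p = 0.0081). Cd81, a tetraspanin gene of the Cdkn1c cluster, fell 2.43-fold in CPE from 147 ± 8.52 CPM in T (edgeR adjusted p = 0.00026). Igf2, a growth factor gene that is paternally expressed, and the maternally expressed H19 RNA and Igf2 receptor gene Igf2r rose in CPE. Igf2 reached 347 ± 176 CPM in CPE from 2.24 ± 0.528 in T, H19 844 ± 410 from 56.6 ± 4.89, and Igf2r 523 ± 140 from 14.0 ± 4.801 (edgeR adjusted p = 1.8e-06, 3.0e-06 and 9.5e-09). Igf2 passed the filter on low counts only with the CPE libraries, so that a rise there was built in. H19 also fell in LPE, to 5.46 ± 4.797 CPM (edgeR adjusted p = 0.0002).

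**Figure D4:**
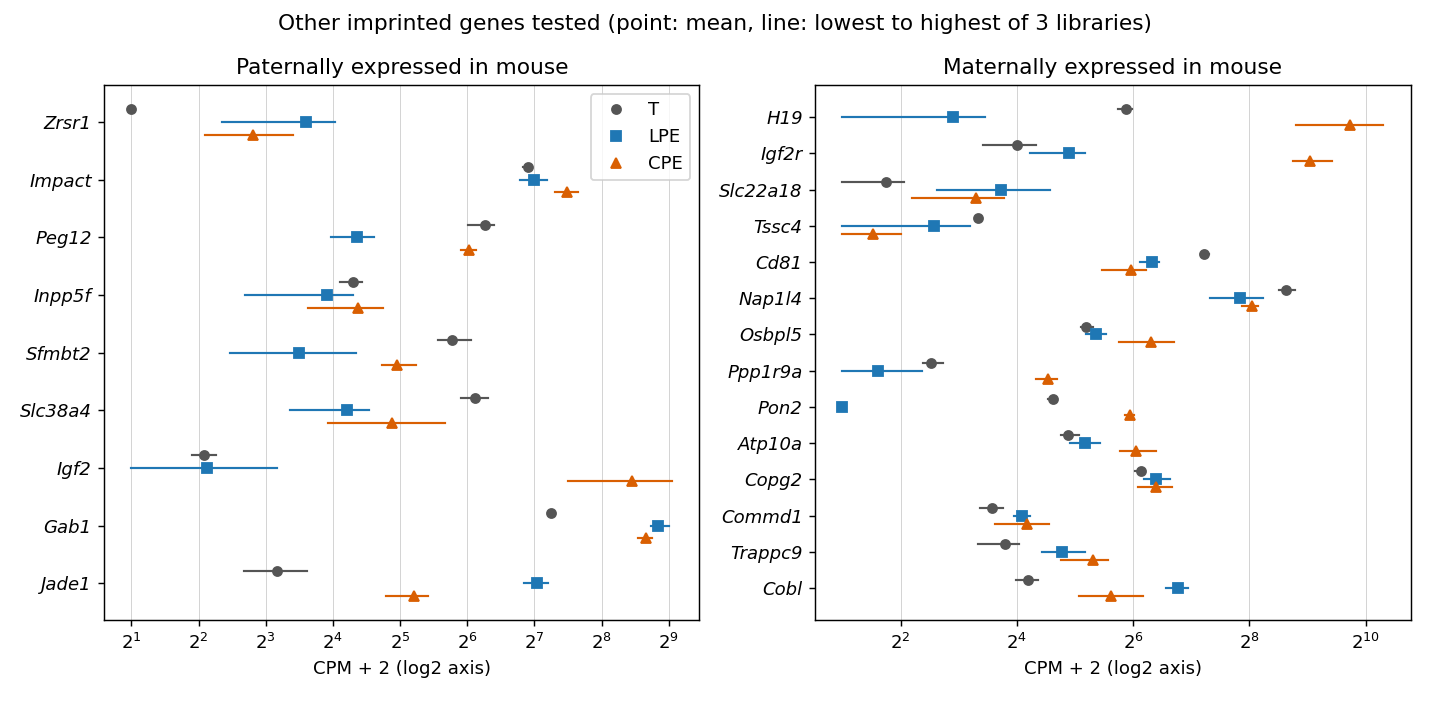
The 23 other imprinted genes tested, by the parental copy expressed in mouse (panels), with CPM + 2 on a log2 axis (x axis). Points are means and lines run from the lowest to the highest of 3 libraries. Jade1 is lowest in T and highest in LPE, Pon2 is at 0 in LPE, and Igf2, H19 and Igf2r are highest in CPE.

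Factors that maintain imprints after fertilization were also counted. Of 12 tested, 4 rose, 1 fell and 7 did not pass in LPE, 5 rose, 1 fell and 6 did not pass in CPE, and 1 was higher in CPE than in LPE. Over all genes tested, 29.7%, 32.1% and 17.8% were called in the same comparisons (15%, 16.8% and 9.56% higher, 14.7%, 15.3% and 8.23% lower). Trim28, the corepressor that zinc-finger proteins bring to imprinted control regions, rose from 655 ± 11.5 CPM in T to 1239 ± 72.3 in LPE (1.89-fold, edgeR adjusted p = 2.0e-06) and 1422 ± 94.2 in CPE (2.17-fold, edgeR adjusted p = 2.4e-07). Uhrf1, which guides the maintenance DNA methyltransferase to newly copied DNA, rose 5.26-fold in LPE and 3.90-fold in CPE from 69.04 ± 19.01 CPM (edgeR adjusted p = 1.8e-07 and 8.6e-07). Eed, a Polycomb subunit, fell 2.19-fold in CPE, a call lost without T replicate 2 or 3 or CPE replicate 1 (adjusted p = 0.0724, 0.0599 and 0.0625). The histone methyltransferase gene Ehmt2 was 1.90-fold higher in CPE than in LPE, at 141 ± 15.3 against 74.5 ± 6.51 CPM (edgeR adjusted p = 0.00098). Leaving out T replicate 2 or 3 cut the count in LPE from 5 called to 2 or 3, and leaving out T replicate 2 or LPE replicate 1 raised that between CPE and LPE from 1 to 2.

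Among 14 tested relatives of the 10 genes, 0 rose and 4 fell in LPE, 0 rose and 2 fell in CPE, and 3 were higher in CPE than in LPE. Over all genes tested, 29.7%, 32.1% and 17.8% were called in these comparisons. The shares called higher were 15%, 16.8% and 9.56%, and those called lower 14.7%, 15.3% and 8.23%. Without LPE replicate 2 the 2 calls in CPE became 4. Maged2, of the same family as necdin, fell 2.71-fold in LPE (edgeR adjusted p = 0.00031) and 2.08-fold in CPE (edgeR adjusted p = 0.0027) from 138 ± 15.5 CPM in T. Gna11, a G protein subunit gene, fell 2.62-fold in LPE (edgeR adjusted p = 0.00029). Phlda3, a relative of Phlda2, fell 1.90-fold in CPE from 239 ± 36.3 CPM (edgeR adjusted p = 0.00023). Cdkn1b, the closest relative of Cdkn1c, was 2.13-fold higher in CPE than in LPE, a call lost without CPE replicate 2 or 3 (adjusted p = 0.0541 and 0.0908).

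Genes of cyclins and of their kinases, which p57 inhibits, and genes of the Rb and E2f families moved both ways. Of 15 tested, 1 rose and 4 fell in LPE, 2 rose and 4 fell in CPE, and 1 was higher and 2 lower in CPE than in LPE, next to 29.7%, 32.1% and 17.8% of all genes called. The shares called in LPE and CPE were thus near those of all genes. Of all genes, 15%, 16.8% and 9.56% were called higher in these comparisons, and 14.7%, 15.3% and 8.23% lower. Rbl1, an Rb relative, rose 1.90-fold in LPE (edgeR adjusted p = 0.0108, but 0.0728 and 0.0514 without T replicate 1 or 3). Rb1 itself rose 3.26-fold in CPE, from 9.71 ± 1.89 to 31.8 ± 5.52 CPM (edgeR adjusted p = 0.0115, but 0.0583 without T replicate 2). The kinase gene Cdk6 rose from 0.182 ± 0.315 CPM in T to 18.9 ± 13.1 in CPE (edgeR adjusted p = 0.0107, but 0.0527 without T replicate 2 and 0.0577 without CPE replicate 3). No T library and not all of LPE reached the cutoff of the filter on low counts. Cdk6 passed it only with the CPE libraries, so that a rise there was built in. Ccne1, a cyclin of the entry into DNA replication, fell 2.53-fold in LPE and 3.01-fold in CPE from 153 ± 8.48 CPM in T (edgeR adjusted p = 8.1e-05 and 1.4e-05). E2f1, which drives replication genes, fell 5.25-fold in CPE, from 53.6 ± 8.99 to 10.2 ± 2.98 CPM (edgeR adjusted p = 9.3e-05). Leaving out T replicate 1 or 3 reduced the 5 calls in LPE to 3.

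Notch genes, whose receptors Dlk1 can bind, gave 3 rises and 0 falls of 9 tested in LPE, and 4 and 0 in CPE. In CPE against LPE 1 was higher and 0 lower. Over all genes tested, 29.7%, 32.1% and 17.8% were called in these comparisons. The shares called higher were 15%, 16.8% and 9.56%, and those called lower 14.7%, 15.3% and 8.23%. The receptor gene Notch3 rose 10.3-fold in CPE, from 4.96 ± 1.87 to 52.1 ± 15.6 CPM (edgeR adjusted p = 0.00061), and Notch2 rose 2.69-fold in LPE and 3.87-fold in CPE (edgeR adjusted p = 0.0026 and 0.00018). Leaving out T replicate 1 or 3, or LPE replicate 1, reduced the calls in LPE from 3 to 1, and the 1 call between CPE and LPE became 2 without LPE replicate 1 or CPE replicate 3.

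Several of these imprinted genes are also known in fibroblasts and trophoblast. Fibroblast markers summed to 5.58 to 39.4 CPM in T, 3.42 to 7.37 in LPE and 2.95 to 9.34 in CPE. Of 10 markers 4 were detected in T, with Col1a2, Dcn and Lum at 0, and Col1a1 at 11.5 ± 10.5 CPM in T and 0 elsewhere. In T replicates 1, 2 and 3 the fibroblast sums were 18.6, 39.4 and 5.58 CPM. Cdkn1c stood at 246, 291 and 237 CPM in these libraries, in the same order of size and above every LPE and CPE library. The part of fibroblasts in the T values was not tested. Trophoblast markers summed to 0.93 to 2.73 CPM in T, 1.60 to 3.11 in LPE and 14.3 to 30.6 in CPE, from 4 of 8 with a row. In CPE these were mainly Cdx2 (0 to 22.5 CPM) and Elf5 (5.80 to 12.04 CPM), with Hand1 and Gcm1 at 0. Their part in the CPE values was not tested. Epiblast markers stayed at or under 2.18 CPM, with Nanog and Sox2 at 0.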

How the data were processed

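RNA was read from 9 libraries. A directional kit with random primers was applied after depletion of ribosomal RNA, and reads were paired, of 101 cycles, per the labels' protocols. The submitters' processing notes name CASAVA 1.8.2, Trimmomatic 0.33, STAR 2.5.1 and DESeq2, with build rn6. No source used here gives the annotation. The authors deposited raw counts per gene, in columns for either strand, the first read's strand and its opposite. The last column was used, since 0.822% to 0.986% of stranded gene reads fell on the other strand. Reads that map to several places (51.7% to 67.6%, most in T) enter no gene, so genes with close copies are under-counted.

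The deposited counts of all 9 libraries entered a single quasi-likelihood model of edgeR 4.0.16 (R 4.3.3) with 1 mean per medium and TMM scaling. The model gives each gene 1 spread for all media, although T replicates varied less than those of LPE and CPE. Errors and p-values between CPE and LPE may therefore be too small. The function filterByExpr, at a minimum of 10 and a minimum total of 15, left 9130 genes. Benjamini-Hochberg adjustment ran over these genes, and "called" means an adjusted p under 0.05. CPM use TMM factors and are given as mean ± SD of 3 libraries. The SE is the log2 fold change divided by the square root of F. A group at 0 was set at a floor of 3 counts per library. Correlations used log2 CPM with 2 added. Gene lengths were not used, so levels are not compared between genes. The members and the 8 gene lists were chosen with earlier results of these data known. Genes of a list were named by a rule: the 2 called genes that rose most and the 2 that fell most, given a mean of 1 CPM or more in either group, and imprinted neighbours of a member. Alternatives were DESeq2, its size factors, no filter, the 2 groups alone, a replicate block, reads of either strand, library totals, and each library left out.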

Additional observations from a re-analysis of the deposited data

Results flagged for a closer look

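Reads on the strand opposite to a member were not used in the comparisons, and in 5 cases a serum-free library had more than 3 such reads and a larger share of them than any T library. Grb10 in LPE replicate 2 had 25 reads, all on the opposite strand (100%), where the T libraries had 0. Mest in CPE replicate 2 had 9 of 362 reads there (2.49%, against at most 1.79% in T). Peg3 in CPE replicate 3 had 5 of 259 (1.93%, against at most 1.01%), Phlda2 in CPE replicate 2 had 9 of 575 (1.57%, against 0) and Ube3a in LPE replicate 3 had 8 of 1151 (0.695%, against at most 0.226%). Each came from 1 library of its medium, and the cause was not tested.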

How the results depend on the processing

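In LPE against T, CPE against T and CPE against LPE, 2716, 2928 and 1624 genes were called, and 14, 15 and 12 of the other imprinted genes. All these counts stayed within 1.5 times under every alternative listed. Leaving out each library in turn gave 1896 to 2853, 2083 to 3490 and 1298 to 1758 genes, and 11 to 15, 13 to 18 and 8 to 11 other imprinted genes. With a replicate block the counts were 2558, 2751 and 1500 genes and 12, 15 and 12 other imprinted genes. Replicate numbers mark no shared batch in the labels: deviations of same-numbered libraries correlated at -0.03 to 0.01, and for 0 of 9 libraries were both same-numbered partners the best match. Library totals without TMM factors were added as a scaling after the data were seen. Of 472 log2 fold changes of the 10 genes under alternatives, 12 moved by more than their SE, and no called one changed sign. Of 1038 for other named genes, 71 fell short of the threshold and 0 reversed. Grb10 depended on the strand used. DESeq2 called 5 cyclin and kinase genes between CPE and LPE, against 3. Low counts limit Dlk1, Grb10, Sgce and Slc22a18 most.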

Other observations

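Genes of insulin and Igf receptor signalling, on which Grb10 acts, were also counted. Of 13 tested, 2 rose and 1 fell in LPE, and 3 rose and 0 fell in CPE. In CPE against LPE 1 was higher and 1 lower. Of all genes, 29.7%, 32.1% and 17.8% were called in these comparisons (15%, 16.8% and 9.56% higher, 14.7%, 15.3% and 8.23% lower). Grb2, an adaptor gene of growth factor receptors, rose 1.74-fold in CPE from 57.8 ± 5.03 CPM in T (edgeR adjusted p = 0.0099, but 0.0592 without T replicate 3). The 3 calls in LPE against T fell to 0 without T replicate 1 or 3 and to 1 without T replicate 2 or LPE replicate 1. In CPE against T, 1 call was left without T replicate 1 or 3 or CPE replicate 1, and between CPE and LPE 1 of 2 without any 1 T library, LPE replicate 2 or 3, or CPE replicate 1 or 3.

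Of 11 genes tested of cAMP signalling around Gnas, 2 rose and 2 fell in LPE, and 1 rose and 3 fell in CPE. In CPE against LPE 0 were higher and 2 lower. The shares called were near those of all genes (29.7%, 32.1% and 17.8%). Of all genes, 15%, 16.8% and 9.56% were called higher, and 14.7%, 15.3% and 8.23% lower. Prkar2b, a regulatory subunit of protein kinase A, fell from 42.4 ± 11.7 CPM in T to 2.66 ± 2.34 in CPE (16.4-fold, edgeR adjusted p = 0.00032). Its relative Prkar2a rose 1.69-fold in LPE and 2.10-fold in CPE from 106 ± 7.85 CPM (edgeR adjusted p = 0.0011 and 4.7e-05). Pde4d, which breaks down cAMP, rose 2.28-fold in LPE (edgeR adjusted p = 0.00024) with CPE 2.36-fold below LPE (edgeR adjusted p = 0.00028). Pth1r, a receptor that couples to the Gnas product, fell 1.76-fold in LPE and 1.45-fold in CPE from 698 ± 23.1 CPM (edgeR adjusted p = 0.00021 and 0.0047).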
